A study of Mus musculus with 2 samples.

Results

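Proteoglycan core protein genes were examined in adherent liver cells of mice with carbon tetrachloride (CCl4) injury. The 10 genes were taken by symbol: Dcn, Lum, Bgn, Fmod, Ogn, Prelp, Vcan, Srgn, Sdc4 and Gpc3. All 10 had an entry in both libraries, among 36458 gene symbols in all. The control group carried 2 floxed Foxf1 alleles (Foxf1fl/fl), and the other group carried the same alleles with a tamoxifen-inducible Cre (αSMACreER;Foxf1-/-). The Cre is driven by the α-smooth muscle actin promoter, so deletion is restricted to cells in which that promoter has been active, such as myofibroblasts. The mice were adult C57/Bl6 males given CCl4, a hepatotoxin that induces fibrosis, for 5 weeks, with tamoxifen injected during the injury period. Cells that adhered to dishes within 2 h of plating were collected as stromal cells, and RNA was pooled into 1 library per genotype. Differences between the genotypes therefore could not be checked against replicates, and p-values are not given. The groups are referred to as control and knockout, after their labels. The targeted gene was not analysed here, so the genotypes are those of the sample labels.

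A proteoglycan is a core protein to which long sulfated sugar chains, the glycosaminoglycans, are attached. Small leucine-rich proteoglycans (SLRPs) are secreted, bind collagen fibrils and influence how fibrils assemble, and decorin can also hold TGF-β in the matrix. In fibrotic liver they are mainly made by hepatic stellate cells (HSCs) and by the myofibroblasts (MFs) they give rise to. Versican is a large hyaluronan-binding matrix proteoglycan, syndecans and glypicans sit on the cell surface and carry heparan sulfate, and serglycin is packed into the secretory granules of blood cells.

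Values are FPKM, fragments per kilobase of transcript scaled to mapped fragments, which can be compared between genes per length. The serglycin gene Srgn was the most abundant member in both libraries, and the SLRP genes Dcn and Bgn were the most abundant of the fibril-binding group. In the knockout library all 6 SLRP genes, Vcan, Sdc4 and Gpc3 had higher values than in the control library, and Srgn had a lower value. The differences of Dcn, Bgn and Lum were close to 1.4-fold and those of the scarce genes Ogn, Prelp and Fmod were larger but rested on few reads. The plot of FPKM by gene shows the whole range.

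**Figure D1:**
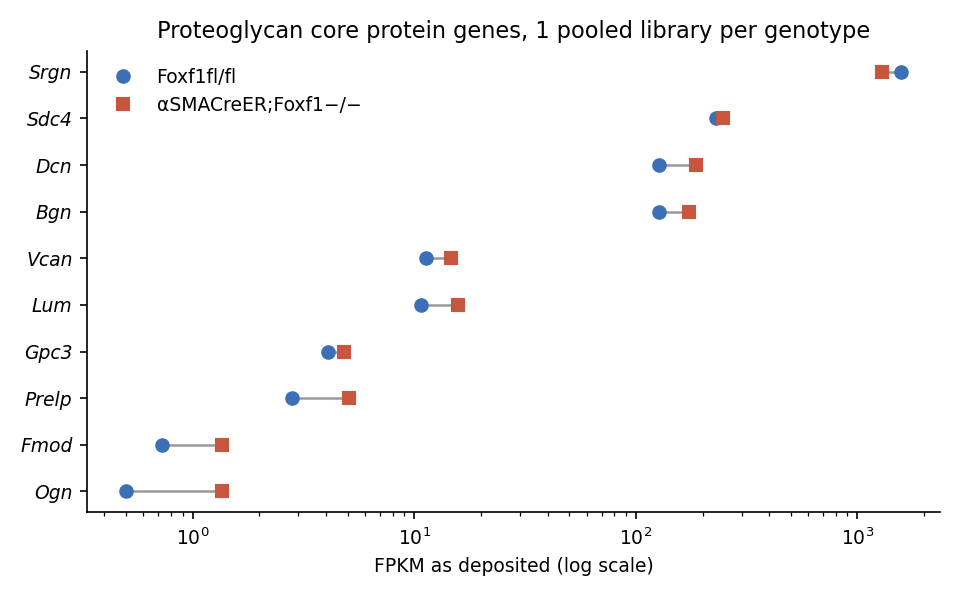
FPKM of the 10 proteoglycan core protein genes in the Foxf1fl/fl (control, circles) and αSMACreER;Foxf1-/- (knockout, squares) libraries, on a log scale and joined by a line for each gene. Srgn lies above 1000 in both libraries, Ogn and Fmod lie near 1, and only Srgn has its square to the left of its circle.

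Fold changes are log2(FPKM + 0.1) of knockout minus control, after the knockout values were divided by 1.02, the median ratio over 11871 genes at or above 1 FPKM in each library. The added 0.1 understates the change of genes near 0. The counting intervals are approximate 95% intervals (exact binomial) on estimated read numbers, and they cover counting error only, not differences between mice. Read numbers assume the median annotated transcript length of each gene. Where the main transcript is longer, the reads are too few and the interval too wide. Libraries of about 9820000 and 11300000 reads were estimated for control and knockout.

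The SLRPs are given first. Dcn (ENSMUSG00000019929, decorin, GRCm38 chromosome 10, plus strand, from 97479609 to 97518143) had an FPKM of 127 in the control library and 186 in the knockout library. The higher value was in the knockout library, and the log2 fold change was 0.53 (counting interval 0.45 to 0.61). Bgn (ENSMUSG00000031375, biglycan, chromosome X from 73483602 to 73495933, plus strand), a close relative of decorin that also signals through Toll-like receptors when released from matrix, had an FPKM of 127 and 173. The log2 fold change was 0.42 and its interval ran from 0.33 to 0.51. Lum (ENSMUSG00000036446, lumican, chromosome 10 from 97565128 to 97572703, plus strand), a keratan sulfate SLRP that binds fibrillar collagen, had an FPKM of 10.7 and 15.7. Its log2 fold change was 0.53, as for Dcn, with a wider interval from 0.30 to 0.77.

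The remaining SLRPs were far less abundant. Prelp (ENSMUSG00000041577, chromosome 1 from 133910304 to 133921414, minus strand), a heparin-binding SLRP, had an FPKM of 2.81 in control and 5.07 in knockout cells, or about 56 and 116 reads. Its log2 fold change was 0.80, with an interval from 0.35 to 1.31. Fmod (ENSMUSG00000041559, fibromodulin, chromosome 1 from 134037254 to 134048277, plus strand) shares collagen binding with lumican and had an FPKM of 0.727 and 1.36. About 12 and 25 reads lay behind these values, and the interval of its log2 fold change of 0.79 ran from -0.22 to 1.96, so a difference was not detectable at this depth. Ogn (ENSMUSG00000021390, osteoglycin or mimecan, chromosome 13 from 49608046 to 49624501, plus strand) had the lowest FPKM of the group in both libraries, 0.500 and 1.35. Its log2 fold change of 1.25 was the highest of the 10 genes, with an interval from 0.38 to 2.43 on about 12 and 36 reads. Dcn and Bgn together made up 94.5% of the summed SLRP FPKM in control cells and 93.9% in knockout cells, so the summed SLRP level of 268 against 383 reflects those genes.

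Among the other members, Vcan (ENSMUSG00000021614, versican, chromosome 13 from 89655312 to 89742509, minus strand) had an FPKM of 11.3 in control and 14.7 in knockout cells. Its log2 fold change was 0.35, with an interval from 0.11 to 0.60. Sdc4 (ENSMUSG00000017009, syndecan 4, chromosome 2 from 164424247 to 164443887, minus strand), a cell surface heparan sulfate proteoglycan that acts with integrins in focal adhesions on fibronectin, had 230 and 248. Its log2 fold change of 0.08, with an interval from 0.02 to 0.15, was the smallest in size of the 10. Gpc3 (ENSMUSG00000055653, glypican 3, chromosome X from 52272426 to 52613950, minus strand), a lipid-anchored heparan sulfate proteoglycan known from fetal liver and liver tumours, had 4.06 and 4.83. The interval of its log2 fold change of 0.22, from -0.23 to 0.67, included no change. Srgn (ENSMUSG00000020077, serglycin, chromosome 10 from 62493833 to 62527451, minus strand) had an FPKM of 1572 and 1288. Its log2 difference was -0.31, with an interval from -0.37 to -0.26. After removal of the trend with transcript length given at the end, Srgn had -0.07 and Vcan had -0.14.

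**Figure D2:**
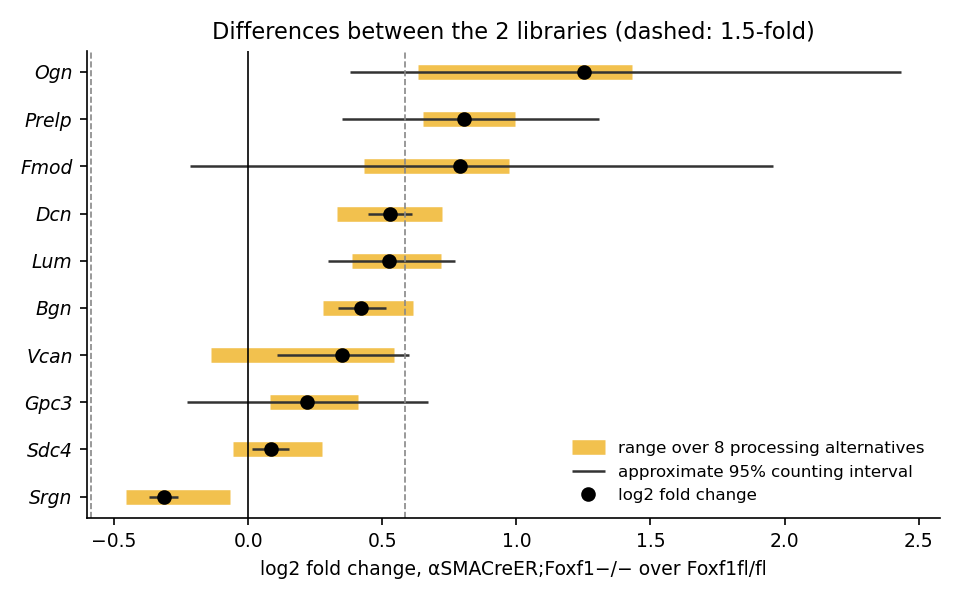
Log2 fold change of each gene (points) with its approximate 95% counting interval (thin lines) and the range of its value over 8 processing alternatives (thick bars), with dashed lines at 1.5-fold. Fmod and Gpc3 have counting intervals that include 0, and the thick bars of Vcan and Sdc4 cross 0.

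The order of the levels was nearly the same in both libraries. Srgn ranked 57 among all gene symbols in the control library and 51 in the knockout library, and it held 75.4% and 66.5% of the summed FPKM of the 10 genes. Sdc4 came next, ranked 465 and 387, followed by Dcn at 809 and 489 and Bgn at 810 and 530. In control cells Dcn and Bgn did not differ beyond counting error, with a counting interval of their ratio from 0.936 to 1.07, and in knockout cells Dcn was 1.08 times Bgn (1.02 to 1.13). The change of the ratio of Bgn to Dcn between the libraries, -0.11 on the log2 scale, had an interval from -0.23 to 0.015 that included no change. With the trend with transcript length removed, that change was 0.15. Vcan and Lum changed places between the libraries, but their ratio was within counting error in each. Prelp and Gpc3 also changed places, with Gpc3 1.45 times Prelp in control cells (1.01 to 2.08) and Prelp 1.05 times Gpc3 in knockout cells (0.798 to 1.39). Fmod and Ogn, the lowest pair, did not differ beyond counting error in either library.

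Of the 10 genes, 9 had a mean FPKM of at least 1, and Ogn, with a mean of 0.926, did not. Fmod passed this filter only through its value in the knockout library. Of the 9, Prelp and Fmod (2) were at least 1.5-fold higher in knockout cells, against 12.8% of the 12692 genes that passed. None (0) was at least 1.5-fold lower, against 13.2% of all genes. Higher values of any size were found for 8 of the 9 and for 50.4% of all genes, and counting intervals above 0 for 6 of the 9 and for 21.3% of all genes. The median log2 fold change of the 9 was 0.42, and that of all genes that passed was 0.0050. With all FPKM scaled to an equal sum the median of all genes shifts by 0.19, and 5 of the 9 then passed 1.5-fold. Across the 12692 genes this threshold was passed upward by 1624 and downward by 1678, against 2690 and 1130 with an equal sum, 2245 and 1291 with upper-quartile scaling and 1112 and 2336 with scaling to HSC and MF markers.

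Ratios within a library do not depend on scaling between libraries, though they keep the trend with transcript length given at the end, and a set of them was chosen after the values were seen. The FPKM of Dcn was 1.81 times that of Col1a1 (the α1 chain of collagen I) in control cells and 1.81 times in knockout cells, a log2 change of 0.0036 (-0.29 to 0.30). Against Col3a1 (collagen III) the ratio was 1.10 and 1.13. The ratio of Lum to Dcn was 0.0844 and 0.0846, and that of Bgn to Dcn was 0.9999 and 0.929. Fn1 (fibronectin) differed more than Dcn, with a ratio of Fn1 to Dcn of 1.01 in control and 1.71 in knockout cells, a log2 change of 0.77 (interval 0.67 to 0.87). The ratio of Dcn to Acta2, which encodes α-smooth muscle actin, was 16.3 and 32.9, a log2 change of 1.01 (0.58 to 1.45). Its ratio to Pdgfra, a receptor gene of HSCs and fibroblasts, went the other way, with 42.9 and 34.4 and a log2 change of -0.32 whose interval (-0.87 to 0.24) included no change. The ratio of Srgn to Lyz2, the lysozyme gene of macrophages and monocytes, was 0.427 and 0.379, a log2 change of -0.17 (-0.23 to -0.11). Its ratio to Cd68, a lysosomal protein of macrophages, was 2.43 and 1.90, a log2 change of -0.36 (-0.43 to -0.28). Both macrophage genes are among those of their list that differed least or were higher, and other macrophage markers such as Clec4f (-0.60 on the log2 scale), C1qc (-0.50) and C1qa (-0.46) were lower by more than Srgn. With the length trend removed, an alternative added after the data were seen, the log2 change was 0.60 for Dcn to Acta2, 0.48 for Fn1 to Dcn, 0.14 for Dcn to Col1a1, 0.29 for Lum to Dcn and 0.15 for Bgn to Dcn. The near-constant ratio of Lum to Dcn thus depended on leaving that trend in, since 0.29 lies above its counting interval (-0.24 to 0.25). Bgn to Dcn changed sign and also lay above its interval (-0.23 to 0.015). Fn1 to Dcn kept its sign but lay below its interval (0.67 to 0.87). The value of Dcn to Col1a1 stayed within its interval, but that interval is wide. Col1a1 was assigned only about 158 and 266 reads, from a median transcript of 428 bases against a longest of 5930. Whether that ratio held is therefore not decided by the interval.

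Several SLRP genes lie beside relatives on the same chromosome, a feature that the choice of genes did not use. Dcn and Lum lie in a span of 203 kb on chromosome 10 with Kera (keratocan) and Epyc (epiphycan), SLRPs of the cornea and of cartilage. Kera was listed at 0 in both libraries, where 3 reads would have given an FPKM of 0.147 and 0.128, and Epyc was listed at 0 and 0.0692. Ogn lies in a span of 120 kb on chromosome 13 with Ecm2, Aspn (asporin) and Omd (osteomodulin). Ecm2 had 0.622 and 0.769, Aspn had 0.149 and 0, and Omd had 0.168 and 0, so Ogn was the only one of this span above 1 FPKM, and only in knockout cells. Prelp and Fmod lie in a span of 151 kb on chromosome 1 with Optc (opticin, known from the eye), which was listed at 0 in both. Abundance thus ran from among the highest to not detected within a single span.

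**Figure D3:**
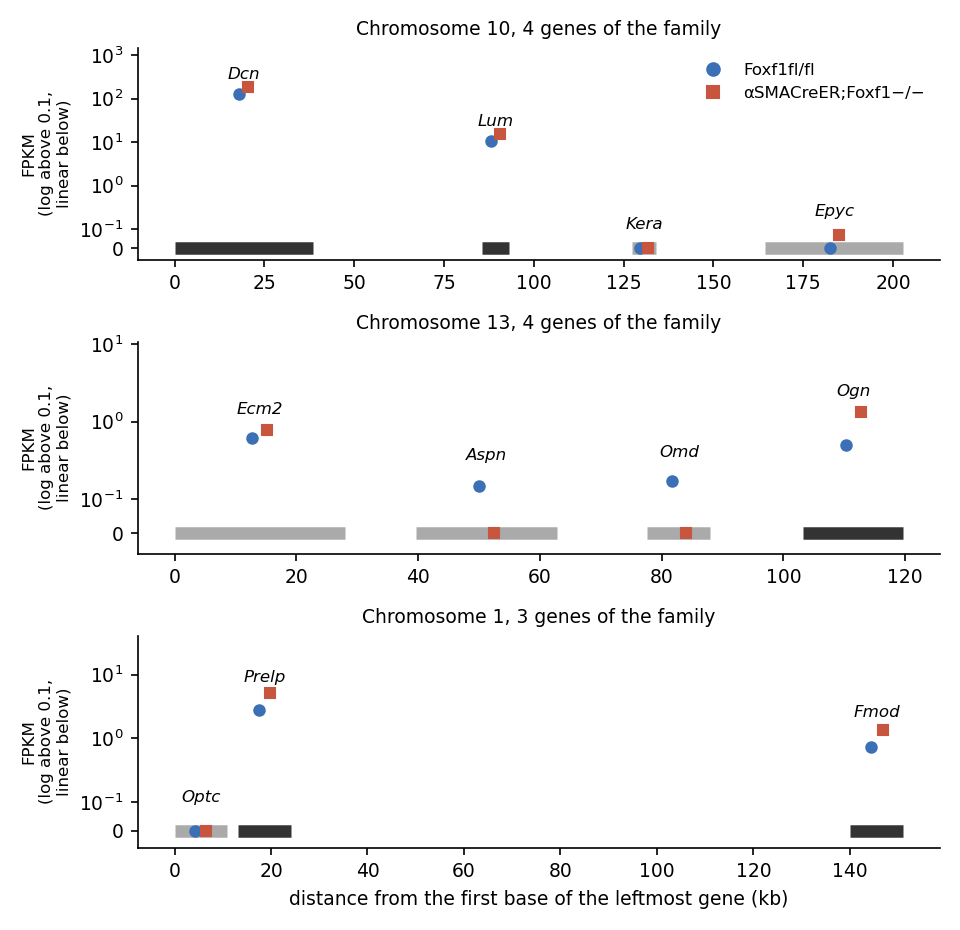
FPKM of SLRP genes along their spans on chromosomes 10, 13 and 1, as distance in kb from the leftmost gene; bars at 0 mark the extent of each gene (dark for the genes examined here, grey for relatives), circles the Foxf1fl/fl (control) and squares the αSMACreER;Foxf1-/- (knockout) library. The axis is logarithmic above 0.1 and linear below. Kera and Optc sit at 0 in both libraries while Dcn and Lum sit above 10.

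The sequences upstream of the start sites varied among the members. Windows of 250 bases before the RefSeq start (GRCm38.p6) were read for 8 of the genes, 9 windows in all since Srgn has 2. Dcn and Lum had no entry. The Sdc4 window and a Srgn window lie inside the gene extents given above, whose annotated starts are further upstream. The pair CG, the site of DNA methylation, occurred 25 times upstream of Gpc3 and 19 times upstream of Sdc4, 10 times upstream of Vcan, 7 of Bgn, 5 of Prelp, 4 of Ogn and 2 of Fmod, and 5 and 3 times in the windows of Srgn. The median of all 32851 windows was 6, and 89.3% and 80.3% of windows had fewer pairs than Gpc3 and Sdc4. The windows of Sdc4, Bgn and Ogn are shown 5′ to 3′ on the coding strand as examples of a high, a middle and a low number, with each CG in capitals, at chr2:164443189-164443438 (minus strand), chrX:73483351-73483600 (plus strand) and chr13:49607765-49608014 (plus strand).
Sdc4: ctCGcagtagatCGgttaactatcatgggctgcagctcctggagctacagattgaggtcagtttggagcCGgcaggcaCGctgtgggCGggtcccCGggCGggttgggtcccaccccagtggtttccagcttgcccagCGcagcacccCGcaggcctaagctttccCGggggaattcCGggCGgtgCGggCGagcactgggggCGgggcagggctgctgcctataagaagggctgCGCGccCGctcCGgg
Bgn: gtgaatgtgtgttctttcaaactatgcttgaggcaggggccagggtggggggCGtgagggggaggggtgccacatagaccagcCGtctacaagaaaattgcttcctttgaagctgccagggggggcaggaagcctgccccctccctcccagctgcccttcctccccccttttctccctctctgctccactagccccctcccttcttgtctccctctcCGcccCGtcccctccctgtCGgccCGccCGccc
Ogn: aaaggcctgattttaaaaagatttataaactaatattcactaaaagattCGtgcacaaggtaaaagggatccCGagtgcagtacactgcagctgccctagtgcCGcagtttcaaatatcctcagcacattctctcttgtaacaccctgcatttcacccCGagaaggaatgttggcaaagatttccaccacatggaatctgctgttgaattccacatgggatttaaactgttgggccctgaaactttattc

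The deleted gene encodes a forkhead factor, and forkhead proteins are known to bind sites with the core TAAACA. This core, or TGTTTA for the other strand, was found in none (0) of the 9 windows and in 12.03% of all windows. The letters are thus not within these 250 bases, and sites elsewhere were not searched.

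The rest of the SLRP family was scarce. Of 11 further SLRP genes, 9 were above 0 in at least 1 library and 2 had a mean FPKM of at least 1. Podn (podocan) had an FPKM of 0.722 in control and 1.52 in knockout cells, a log2 difference of 0.96 (interval 0.10 to 2.12). Tsku (tsukushi), a secreted SLRP made by hepatocytes, had 4.57 and 3.18, a log2 difference of -0.53 (-0.99 to -0.12).

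Other extracellular proteoglycans had no common direction, with 4 of 8 higher, 4 lower and a median log2 fold change of 0.00070, which was -0.47 after the length trend was removed and 0.19 when sums were made equal. Hspg2 (perlecan), the basement membrane heparan sulfate proteoglycan, was the most abundant at 23.7 and 26.8. Spock2 (testican-2) was higher, with a log2 fold change of 0.97, while Esm1 (endocan, from endothelium) was lower at -0.74 and Prg2 (major basic protein of eosinophils) was lower at -2.40. Of 9 other cell surface proteoglycans that passed, 4 were higher and 5 lower, and 0 passed 1.5-fold, against 12.8% of all genes higher and 13.2% lower by that amount. Cd44, the hyaluronan receptor, had 204 and 260. The syndecans next to Sdc4 were close between the libraries, with 60.1 and 60.9 for Sdc1, 7.80 and 6.94 for Sdc2, and 180 and 164 for Sdc3, and the glypican Gpc1 had 9.24 and 9.37. Gpc4, the glypican nearest to Gpc3 in level, had 3.68 and 2.84, and the ratio of Gpc3 to Gpc4 was 1.10 and 1.70, a log2 change of 0.62 (0.0080 to 1.24).

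Genes that build the sugar chains were mostly higher by small amounts, to be read against the 50.4% of all genes that were higher and the 12.8% that were higher by 1.5-fold, although with scaling to the HSC and MF markers the median of the heparan sulfate genes was -0.008, and that of the keratan sulfate genes -0.056. With the length trend removed the medians were 0.069 for the chondroitin and dermatan sulfate genes, 0.0057 for heparan sulfate and -0.099 for keratan sulfate. The counts of genes higher or past 1.5-fold in all lists keep that trend. As for Fmod, the values of Podn, Spock2, Pxylp1, Chst3, Has2 and Adamts5 were below 1 FPKM in control cells, and these genes passed the filter only through the knockout library. All 7 genes for the linkage between core protein and chain passed, with a median log2 fold change of 0.22 and 2 at least 1.5-fold higher. That median was 0.070 with the filter raised to 5 FPKM and 0.081 with scaling to the HSC and MF markers. B3gat3, the most abundant at 20.1 and 17.3, was the only lower gene. Xylt1, a xylosyltransferase that starts the chain on the core protein, had an FPKM of 2.44 in control and 5.28 in knockout cells. Its log2 difference was 1.06 (interval 0.574 to 1.596). Xylt2, the other xylosyltransferase of the list, was more abundant at 9.62 and 9.91, a log2 difference of 0.016 (-0.60 to 0.68). Pxylp1, a phosphatase that acts on the linkage xylose, had 0.553 and 1.68, with an interval from -0.45 to 4.01. About 3 and 10 reads were estimated, from a median transcript of 731 bases against a longest of 3189. Of 13 genes for chondroitin and dermatan sulfate, the chains of decorin, biglycan and versican, 10 were higher, 3 by 1.5-fold, and the median was 0.18. These were Chst3 (0.76) and Chst11 (0.72), chondroitin sulfotransferases, and Ust (0.62), a uronyl sulfotransferase. Genes of the length of Chst3 and Chst11 had a median of 0.33, and those of the length of Ust 0.19. With these medians subtracted, Chst3, Chst11 and Ust fall short of 1.5-fold. Dse, the epimerase that makes dermatan sulfate, was the most abundant at 20.04 and 24.4.

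Of 13 heparan sulfate genes 10 were higher, with a median of 0.13. Sulf1, a sulfatase that trims heparan sulfate outside the cell, had 1.37 and 2.83, a log2 difference of 0.98 (0.41 to 1.63), and Glce, an epimerase, had 0.70 (0.0020 to 1.51). The 5 keratan sulfate genes had a median of 0.076 and 0 past 1.5-fold, and B4galt1 was the most abundant at 40.4 and 41.1. Of 7 hyaluronan genes 6 were higher, against 50.4% of all genes, with a median of 0.40. That median came to 0.13 without a filter, 0.20 with the filter raised to 5 FPKM and 0.22 after the length trend was removed. The hyaluronan synthase Has2 had 0.852 and 1.48, a log2 difference of 0.70 (0.13 to 1.39). Has1, a far more abundant synthase, had 25.3 and 26.8, a log2 difference of 0.059 (-0.09 to 0.21).

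Enzymes that cleave proteoglycans had a median of 0.42 over 9 genes, and 0.22 after the length trend was removed. Of the 9, 7 were higher, against 50.4% of all genes. Adam10, a sheddase of cell surface proteins, had 14.9 and 25.6, a log2 difference of 0.75 (0.52 to 0.99), and Adamts5, a protease of versican, had 0.898 and 1.54. Mmp14, the most abundant, had 232 and 228. Lysosomal enzymes of glycosaminoglycan breakdown had a median of 0.25 over 12 genes, with Ids (iduronate-2-sulfatase) at 0.98 and Arsb at 0.64 as the 2 genes past 1.5-fold, against 12.8% of all genes, and Hexa as the most abundant at 234 and 208. Among 14 ligands and receptors that proteoglycans bind, 7 were higher and 7 lower, and the median was 0.14. It was -0.03 after the length trend was removed and -0.02 with the filter raised to 5 FPKM. Of the 14, 5 passed 1.5-fold upward, against 12.8% of all genes, and 0 downward, against 13.2%. Genes of the length of Egfr, Tgfbr1 and Tgfb2 had medians of 0.49, 0.33 and 0.25. With the length trend subtracted, Tlr4 and Hgf still passed 1.5-fold, and Egfr, Tgfbr1 and Tgfb2 did not. Tlr4, a receptor for free biglycan, had 4.83 and 10.5, a log2 difference of 1.08 (0.62 to 1.61). Tlr2, the other Toll-like receptor of the list, was more abundant and lower, at 168 and 155 (-0.14, from -0.20 to -0.08). Tgfbr1 had 12.002 and 21.2 and Hgf had 4.64 and 7.60, while Tgfb1, the most abundant, had 237 and 204. Egfr had 0.84 with an interval from -0.09 to 1.90 on about 14 and 30 reads. Tgfb2 had 0.65 with an interval from -0.48 to 1.96 on about 10 and 19 reads. The median transcript behind these reads was 716 bases for Egfr and 821 for Tgfb2, against longest transcripts of 10208 and 5116.

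**Figure D4:**
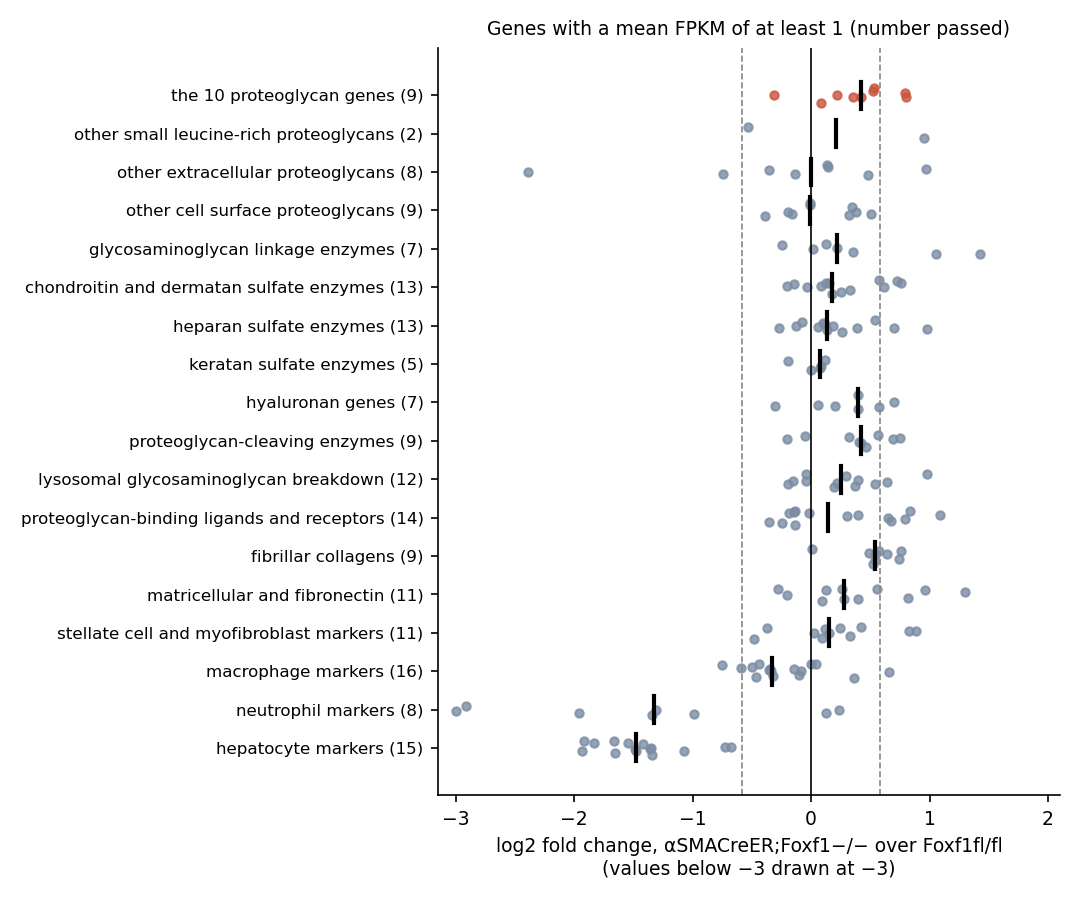
Log2 fold change of each gene with a mean FPKM of at least 1 in the lists compared, with black bars at the medians, dashed lines at 1.5-fold and the number of genes in parentheses; 1 neutrophil gene below -3 is drawn at -3. The proteoglycan genes have a median of 0.42, the fibrillar collagens 0.54, the macrophage markers -0.33 and the hepatocyte markers -1.48.

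The fibrillar collagens, which SLRPs bind, had a median log2 fold change of 0.54 over 9 genes. With the length trend removed this median was 0.20. All 9 were higher, against 50.4% of all genes. Of these, Col27a1 was nearly level at 2.59 and 2.65, with a log2 fold change of 0.0069 (-0.39 to 0.39). Col3a1 had 115 and 164, Col1a1 had 70.2 and 103, and the 3 past 1.5-fold, against 12.8% of all genes, were Col24a1, Col5a2 and Col11a2. These counts keep the length trend. Genes of the length of Col24a1, Col5a2 and Col27a1 had a median of 0.37, and those of the length of Col11a2 0.33. Subtracting these medians leaves Col24a1, Col5a2 and Col11a2 short of 1.5-fold and makes Col27a1 negative. Col24a1 rested on about 17 and 34 reads, and its interval from -0.11 to 1.70 included no change. Those reads assume a median transcript of 1198.5 bases against a longest of 7143. The 11 matricellular genes, 9 higher and 2 lower, had a median of 0.28. This median was 0.14 with scaling to the HSC and MF markers and 0.47 with equal sums. Among the 11, Fn1 had the largest difference, at 127 and 319 with a log2 fold change of 1.30 (1.24 to 1.36). Tnc (tenascin C) had 0.97 (0.63 to 1.42). Ccn4 had 0.82 on about 16 and 33 reads, with an interval from -0.09 to 1.78 that included no change, and Spp1 (osteopontin), the most abundant, had 495 and 606. With 1 library per genotype the difference between these groups and the proteoglycan genes was not tested.

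Markers of the cells that could carry these transcripts were read from the same libraries. In bulk RNA, fewer cells of a type and less RNA per cell cannot be told apart. Of 20 HSC and MF markers 19 were above 0 in each library, and Gfap was listed at 0 in both. Acta2 had 7.77 and 5.65, Des (desmin) had 1.70 and 3.29 and Pdgfrb had 1.03 and 1.43, so the defining markers were low in cells labelled as stromal. Pdgfra had 2.95 and 5.40, a log2 difference of 0.82 (0.30 to 1.45). The summed FPKM of the list was 1867 and 2029, almost all of it from Vim (1836 and 1996), which leukocytes also express. The median log2 fold change of 11 markers that passed was 0.15, and -0.19 with the filter raised to 5 FPKM. When the libraries were scaled to 10 of these markers, Dcn had a log2 fold change of 0.39, Bgn 0.28 and Sdc4 -0.06. The part of HSC and MF content in the SLRP differences was not tested.

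Leukocyte RNA was abundant in both libraries. All 16 macrophage markers were above 0, with a summed FPKM of 13496 in control and 11204 in knockout cells, and Lyz2 was the highest at 3682 and 3395. Adgre1, which encodes F4/80, stood at 162 and 165, Cd68 at 646 and 679, and the Kupffer cell lectin Clec4f had 1117 and 753. Of the macrophage markers 13 were lower and 3 higher, against 50.4% of all genes higher. Their median log2 fold change was -0.33, beside -0.31 for Srgn, with a range from -0.76 (Cd163) to 0.66 (Itgam). That median was -0.07 after the length trend was removed, and -0.13 when sums were made equal, a scaling that shifts all genes alike. The 8 neutrophil markers summed to 2040 and 861, with S100a9 at 1258 and 504, S100a8 at 625 and 256, and Ly6g at 9.82 and listed at 0. Of these 8, 6 were lower, all by at least 1.5-fold, against 13.2% of all genes. The 2 higher were the receptor genes Csf3r at 48.4 and 53.6 and Cxcr2 at 1.55 and 1.88. The median of the list was -1.33. The 12 T and NK cell markers summed to 175 and 191, with Gzma, a granule protease stored with serglycin, at 41.4 and 43.8. Mast cells, which are rich in serglycin, had Cma1 at 3.126 and 1.504, Tpsb2 at 4.17 and 2.49 and Ms4a2 listed at 0 in both, whereas Kit had 13.7 and 14.1 and Cpa3 had 0.659 and 1.14 on about 5 and 9 reads. Of the platelet genes Pf4 had 64.5 and 51.4, whereas Ppbp had 1.54 and 2.24 and Gp1bb had 0.735 and 1.37, and the median of the 4 that passed was 0.18. Gp1bb passed the filter only through the knockout library, and with the filter raised to 5 FPKM the median was -0.24. The part of each leukocyte type in the Srgn difference was not tested.

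All 15 hepatocyte markers were at least 1.5-fold lower in knockout cells, against 13.2% of all genes, with a summed FPKM of 5444 and 2273 and a median log2 fold change of -1.48. Alb was the highest at 2292 and 912, and Ttr had 322 and 86.8. Tsku, named above as a hepatocyte product, was also lower. Their part in the values of Sdc4 and Gpc3, which hepatocytes can also express, was not tested. Of the 12 endothelial markers, all above 0, the summed FPKM was 1350 and 1351. There were 8 higher and 4 lower, against 50.4% of all genes higher. The median log2 fold change was 0.12, and it was -0.05 after the length trend was removed and -0.02 with scaling to the HSC and MF markers. Fcgr2b had the highest mean, at 217 and 262, while Clec4g at 254 and 187 and Egfl7 at 229 and 170 were higher than it in control cells and had lower values in knockout cells.

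Fold changes across the genome varied with transcript length, and the values of the proteoglycan genes were set against that trend. Over the 12692 genes Spearman's rho between the longest annotated transcript and the log2 fold change was 0.45, given as a description since genes are not replicates. The longest transcript of Srgn has 1727 bases, and the median log2 fold change of genes of that length was -0.25, which left -0.07 for Srgn. The longest transcript of Vcan has 12427 bases, and genes of that length had a median of 0.49, which turned the value of Vcan from 0.35 to -0.14. The SLRP genes kept positive values after this subtraction, with 1.34 for Ogn, 0.79 for Fmod, 0.71 for Prelp, 0.62 for Lum, 0.48 for Bgn and 0.33 for Dcn. Sdc4 had 0.18 and Gpc3 had 0.36.

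**Figure D5:**
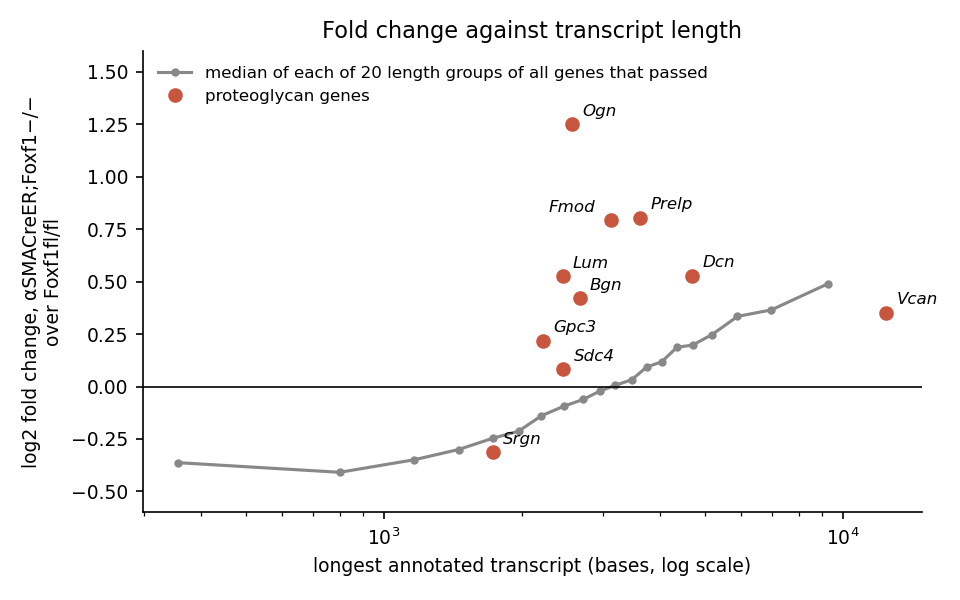
Log2 fold change against the longest annotated transcript (log scale) for the 10 proteoglycan genes, with the median of 20 groups of all genes by length (line). The 6 SLRP genes, Sdc4 and Gpc3 lie above the line, Srgn lies just below it, and Vcan, longer than the median of the longest group, lies below its last point.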

How the data were processed

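Per the labels, single-end reads of 75 bases were aligned to mm10 with TopHat, and the authors deposited Cufflinks FPKM per Ensembl gene. The study's methods also describe read filtering and quantification in Avadis NGS, and whether the deposited values passed through these steps is not given in the sources used here, nor are the versions of TopHat and Cufflinks, the strandedness of counting or the number of mice pooled. Of 38320 entries, 36490 (95.2%) had a symbol in GENCODE M21 (GRCm38) and 36402 overlapped that gene there. For repeated symbols only the most abundant entry was used, and 3 entries with a status other than OK, Adamts4 among them, were left out. Levels were scaled by the median ratio, 0.1 was added before log2, and summaries used a mean FPKM of at least 1 and the authors' 1.5-fold threshold.

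Reads were estimated from the spacing of low values of genes with a single transcript, assuming fragments of 200 bases. Within a tolerance of 0.1 read, 49.2% and 51.3% of such values came out whole, and the depth is therefore rough. Read numbers of single genes used the median annotated transcript length, which for Col1a1 was 428 bases against a longest transcript of 5930. Reads of such genes are likely understated and their intervals too wide. No count test was used, since FPKM values are not counts. Intervals assume independent reads.

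The genes examined and all lists were chosen with earlier results of these data known. Lists came from general knowledge. Genes named per list were drawn from the most abundant, up to 4 past 1.5-fold with the largest change and, for markers, the first 3. Not all such genes are printed. SLRP neighbours, other syndecans and glypicans, and a few other markers were named after their values were seen. So were Xylt2, Has1, Tlr2, Tgfb2 and Col27a1. The procedure was tested on simulated data. Promoters came from RefSeq (GRCm38.p6), and protein sequences were not used here. Calculations used scipy 1.17.1, pandas 2.3.3 and numpy 2.4.6 under Python 3.11.15, and plots matplotlib 3.10.9.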

Additional observations from a re-analysis of the deposited data

How the results depend on the processing

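No paired analysis was possible because there was a single pooled library for each genotype, and for the same reason no replicate could be left out. Scaling, pseudocount, filter, threshold, the interval requirement, the length trend and the use of repeated symbols were varied. The log2 fold changes of Lum, Fmod, Ogn, Prelp and Gpc3 stayed within their counting intervals under the 8 alternatives that apply to single genes. Wide intervals make this a weak check for scarce genes. The value of Fmod ran from 0.43 to 0.97 and that of Ogn from 0.63 to 1.43. With an equal FPKM sum, Dcn had 0.72, Bgn 0.62, Sdc4 0.28 and Srgn -0.12. With upper-quartile scaling they had 0.65, 0.54, 0.21 and -0.19, and with scaling to the HSC and MF markers 0.39, 0.28, -0.057 and -0.46. With the length trend removed Dcn had 0.33, Sdc4 0.18, Srgn -0.067 and Vcan -0.14. Sdc4 and Vcan thus changed sign once each, and the other 8 genes kept theirs.

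The number of genes at least 1.5-fold higher among the 9 was 2. It was 1 with a pseudocount of 1, 4 with upper-quartile scaling, 5 with equal sums, 1 where the counting interval had to leave out no change, and 0 at 2-fold or with the filter raised to 5 FPKM. The number lower was 0 throughout. The median over the 9 was 0.42 and ran from 0.28 with scaling to the HSC and MF markers to 0.62 with an equal FPKM sum. Among all genes 1624 were higher and 1678 lower. The number higher was 2690 with an equal FPKM sum, and the numbers higher and lower were 3832 and 3225 without a filter, 685 and 943 with the filter raised to 5 FPKM, and 552 and 788 at 2-fold. The median of the mast cell and basophil markers, -0.73, was 0.016 with the filter raised to 5 FPKM, where Kit alone remained. The median of the macrophage markers, -0.33, was -0.070 with the length trend removed, and that of the fibrillar collagens, 0.54, was 0.20. The median changed sign under 1 to 5 alternatives in 11 of the other lists, most often for other cell surface proteoglycans (5), B and plasma cell markers (4), other extracellular proteoglycans (3) and keratan sulfate genes (3). Among the 10 genes depth limits Fmod and Ogn most, at about 12 reads each in control. For Pxylp1, Cpa3 and Mfap4 of the other lists about 3, 5 and 6 were estimated from the median transcript length.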

Other observations

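Cells other than those weighed beside the proteoglycans also left transcripts in both libraries. Among 12 fibroblast and mesothelial markers, all above 0, 11 passed the filter with a median log2 fold change of 0.17. Of the 11, 7 were higher and 4 lower, against 50.4% of all genes higher. The median was 0.029 with scaling to the HSC and MF markers. Mfap4, a microfibril protein, had an FPKM of 0.529 in control and 2.26 in knockout cells, a log2 difference of 1.89 with an interval from 0.75 to 3.60 on about 6 and 29 reads, and it passed the filter only through the knockout library. Dpt (dermatopontin), a protein that binds decorin, had 2.102 and 3.47, a log2 difference of 0.67 (0.075 to 1.399). Pi16 had 4.08 and 5.96, Thy1 had 13.1 and 11.8, Cd34 had 20.4 and 20.5, and Krt19, the highest of the list, had 39.7 and 29.5.

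The 6 B and plasma cell markers had a median of -0.0023, with Cd79a at 24.6 and 24.0 and the immunoglobulin joining chain gene Jchain at 78.8 and 26.0, a log2 difference of -1.62 (-1.78 to -1.47). Mzb1, also of plasma cells, had 13.3 and 6.25. Of the 10 T and NK cell markers that passed, 9 were higher, against 50.4% of all genes, and 1 lower, with a median of 0.22. Prf1 (perforin) had 1.503 and 4.74, Cd4 had 6.34 and 14.1 and Cd3e had 8.02 and 9.88. The lower gene was Cd3g, with 39.7 and 25.5. The cholangiocyte markers had a median of 0.26 over 5 genes, 3 higher and 2 lower, and this was the value of Spp1. Krt7 had 4.91 and 6.91, with an interval from -0.34 to 1.24 that included no change. Epcam had 8.38 and 5.65 and Krt19 had 39.7 and 29.5. The 4 mast cell and basophil markers that passed had a median of -0.73. None of these differences has a replicate.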
